A study of Homo sapiens with 2 samples.

Results

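The squamous lineage transcription factors examined here are TP63, SOX2, GRHL1, GRHL2, GRHL3, OVOL1, ELF3, EHF and ZNF750, 9 DNA-binding proteins that set or maintain the identity of stratified squamous epithelium. Every probe set whose gene symbol is one of these names was taken. This gave 20 probe sets for 8 of the 9 genes, out of 41097 probe sets and 19775 genes with a single symbol. Each probe set is a group of several short oligonucleotides, and some probe sets can bind more than 1 transcript. TP63 was not analysed here, because none of its probe sets is named in the annotation used.

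The RNA came from Ca9-22, a line grown from a human gingival squamous cell carcinoma. One culture carried an empty lentiviral vector (Ca9-22-EV) and the other a vector with PTHLH cDNA (Ca9-22-PTHLH), which encodes a secreted hormone-like ligand. Both were selected with blasticidin for stable transduction, and total RNA of each was hybridised to 1 Affymetrix U133 array. The vector drives PTHLH from outside its own locus, so the Ca9-22-PTHLH culture is an overexpression model in a single cell line. The comparison asks which transcripts differ when Ca9-22 cells are made to express PTHLH. With 1 array per condition there is no replicate spread, so no test was run and no p-value or SE is given. Whatever else differed between the 2 cultures cannot be told apart from the vector.

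In stratified epithelium TP63 is the master factor of the basal layer, and SOX2, which lies on the same chromosome arm, is often gained together with it in squamous carcinomas. The grainyhead-like factors GRHL1, GRHL2 and GRHL3 control epithelial junctions, barrier formation and wound closure. OVOL1 is a zinc finger repressor that moves keratinocytes out of the cell cycle and restrains mesenchymal genes. ELF3 and EHF belong to the epithelium-specific branch of the ETS family and switch on genes of differentiation and mucosal defence. ZNF750 acts downstream of TP63 and is needed for terminal differentiation.

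The labelled cell type was checked against marker genes. Titles and characteristics of the samples give Ca9-22 and PTHLH, and these were followed, although a description field mentions CX-1 cells and RAB3C. PTHLH itself was not analysed here, because none of its probe sets is named in the annotation used, so its overexpression, and which array carries it, was not checked. The marker genes bear on the cell type alone. Of 19 squamous epithelial markers 14 were measured, and all 14 lay above the median of both arrays, with summed intensities of 49296 on the EV array and 53653 on the PTHLH array (arbitrary units, linear scale). Of 17 markers of colon epithelium 15 were measured. Their summed intensities were 391 and 367, with 8 of them above both medians and 7 below both. The intestinal factor CDX2 had 27.2 and 26.3 and the intestinal keratin KRT20 had 9.40 and 7.75, against array medians of 19.5 and 19.4. Markers of endothelium (6 measured, summed 239 and 242), immune cells (7 measured, 93.0 and 95.1) and melanocytes (5 measured, 161 and 136) had low sums too. Of these, 4 endothelial, 1 immune and 4 melanocyte markers lay above both medians. Those of fibroblasts (9 measured) summed to 2567 and 1781, of which COL1A1, a fibrillar collagen chain, made up 2437 and 1652. The part of these other cell types in the differences below was not tested.

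The start regions of the 2 ETS factors are shown because they are paralogues whose brightest probe sets differed unequally between the arrays. That of ELF3 had the largest difference of the factors, while that of EHF hardly differed. The next 2 probe sets of each do not bear out this contrast. Their log2 differences (PTHLH array minus EV array) were -0.53 and -0.37 for EHF and -0.28 and -0.20 for ELF3. The sequences are RefSeq's, in build GRCh38.p14, and cover the 250 bases before the annotated start of transcription on the plus strand (chr1:202010337-202010586 for ELF3 and chr11:34624007-34624256 for the upstream of 2 listed EHF starts). Capitals mark a TATA box, searched as TATAAA on both strands.
ELF3: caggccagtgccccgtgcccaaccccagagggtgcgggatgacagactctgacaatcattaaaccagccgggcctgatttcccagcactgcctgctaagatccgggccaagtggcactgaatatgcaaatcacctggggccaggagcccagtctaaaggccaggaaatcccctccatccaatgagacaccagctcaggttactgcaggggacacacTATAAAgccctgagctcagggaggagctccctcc
EHF: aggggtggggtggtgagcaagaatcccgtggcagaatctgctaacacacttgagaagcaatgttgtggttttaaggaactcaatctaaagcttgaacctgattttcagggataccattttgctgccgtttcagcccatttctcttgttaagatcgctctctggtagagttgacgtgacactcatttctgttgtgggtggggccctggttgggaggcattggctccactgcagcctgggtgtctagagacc
The ELF3 region held TATAAA from base -34 to -29 relative to the start. The letters were absent from the EHF window, and 10.7% of 35116 promoter windows of this length contained them on either strand. Of the 9 factors, 6 had a window in the table, 8 windows in all, and ELF3 was the only one of these with TATAAA. GRHL2, OVOL1 and ZNF750 had none in the table. The ETS motif CCGGAAGT (3.42% of all windows) and the grainyhead motif AACNGGTT (1.49%, which includes AACCGGTT, 0.117%) were in none of the 8. The ZNF750 motif CCNNAGGC (23.5%) was in a window of GRHL1 and in 1 of the 2 of GRHL3. The pattern of paired TP63 binding elements was in windows of ELF3, GRHL1, GRHL3 and SOX2, but also in 68.6% of all windows. These matches describe the letters in the window and were not related to binding. Whether they bear on the differences between the arrays was not tested.

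Of the 8 factors measured, read by the brightest probe set, 1 (ELF3) was lower in Ca9-22-PTHLH cells by 1.5-fold or more, where 3.52% of all genes were. None was higher by that much, where 1.97% of all genes were. The other 7 lay within 1.5-fold, which is the study's own threshold. The share of lower factors, 12.5%, rests on this single gene. By log2 difference (PTHLH array minus EV array), 5 factors were above 0 and 3 below, with a median of 0.10 against 0 over all genes. The only internal measure of error was how far the 2 brightest probe sets of a gene disagreed. Over 5594 genes with both above the array medians, this gave a single log2 difference an SD of 0.20. It covers probes and not cultures. Of the 8 factors, 4 had a difference smaller than this SD and 2, ELF3 and GRHL1, one larger than 2 SD. Over all 10523 genes with several probe sets, dim ones included, the SD was 0.23. By that SD GRHL1, whose second probe set was dim, was not past 2 SD.

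**Figure D1:**
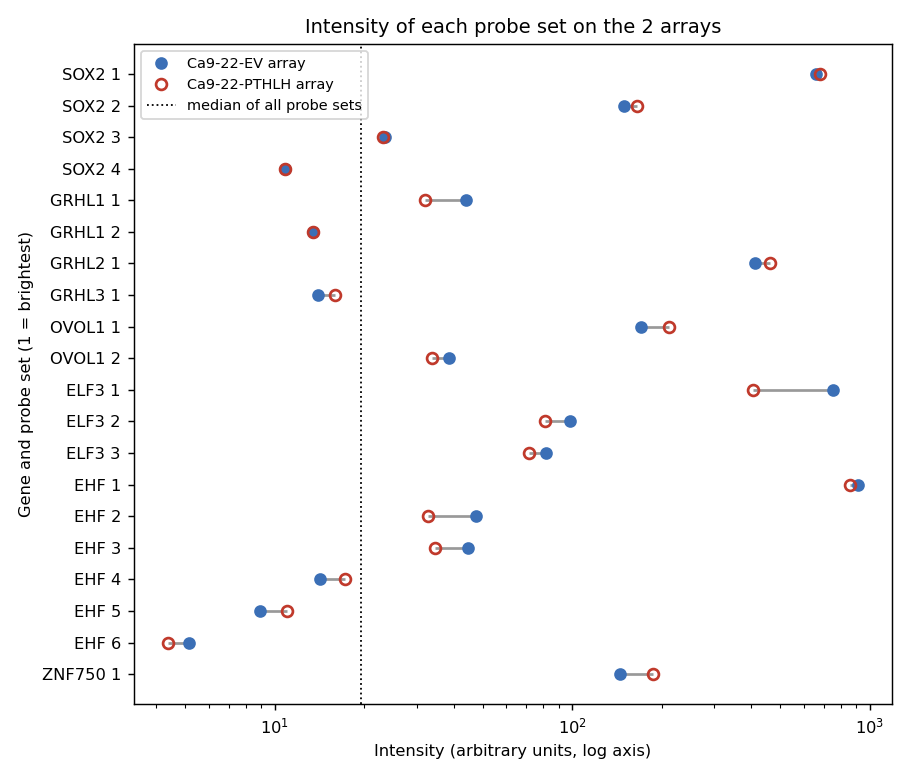
Intensity (arbitrary units, log axis) of each of the 20 probe sets on the Ca9-22-EV array (filled blue) and the Ca9-22-PTHLH array (open red), 1 array each, joined by a line; probe sets of a gene are numbered from the brightest, and the dotted line is the median of all probe sets. The longest line is that of ELF3 probe set 1, from 753 to 405, and the 4 SOX2 pairs nearly coincide.

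ELF3, the ETS factor of differentiating and inflamed epithelium, had 3 probe sets, all above both array medians. The brightest read 753 on the EV array and 405 on the PTHLH array, a log2 difference of -0.90. Its suffix s marks probes that can bind more than one transcript. The next read 98.4 and 80.9 (-0.28), and the dimmest read 81.9 and 71.4 (-0.20). All 3 were lower on the PTHLH array, but the 2 dimmer ones stayed within 1.5-fold. The 2 brightest differed by 0.61 on the log2 scale, and 4.31% of the 5594 genes had a gap at least as wide, where the median gap was 0.16. The difference of the brightest probe set lay at percentile 1.06 of all genes. The study lists ELF3 among the molecules of pathways it drew from these same arrays with the 1.5-fold threshold, so its passing that threshold is not independent evidence.

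EHF, the paralogue of ELF3, had 6 probe sets. Its brightest read 913 on the EV array and 857 on the PTHLH array, a log2 difference of -0.09. The next 2 in brightness read 47.6 and 32.8 (-0.53) and 44.8 and 34.6 (-0.37). These 3 lay above both medians and were lower on the PTHLH array, though by different amounts and none by 1.5-fold. The other 3 were below both medians. Of them, the pair with suffixes s and x, the latter a mark of probes that can cross-hybridise, were higher (14.3 to 17.3 and 8.94 to 11.01, or 0.28 and 0.30), and the dimmest was lower (5.14 to 4.38, -0.23). The sign for EHF therefore depended on the probe set.

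All measured grainyhead-like factors lay within 1.5-fold. GRHL1, which acts in hair anchorage and desmosomal cadherin expression, read 43.9 on the EV array and 32.1 on the PTHLH array by its brighter probe set, a log2 difference of -0.45 (percentile 6.22 of all genes). Its other probe set, below both medians, held the identical value of 13.4 on both arrays. GRHL2, which keeps up E-cadherin and tight junction genes, read 412 and 463, a log2 difference of 0.17 by its single probe set. GRHL3, the factor of the skin barrier and of neural tube closure, was dim, at 14 and 15.9 (0.18), below both medians, so its level in either culture is uncertain. The values of GRHL2 and GRHL3 were smaller than the SD between probe sets.

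OVOL1 and ZNF750, the factors tied to exit from the basal state, lay within 1.5-fold. ZNF750 read 145 on the EV array and 186 on the PTHLH array by its single probe set, a log2 difference of 0.36 or 1.29-fold (percentile 91.6 of all genes). This probe set also has the suffix s. OVOL1 read 170 and 212 by its brighter probe set, a log2 difference of 0.32 or 1.25-fold. Its second probe set, which was above both medians too, went the other way, from 38.5 to 33.8 (-0.19). The gap of 0.51 between them was matched or exceeded in 7.87% of genes. No direction can be given for OVOL1 from such a pair.

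SOX2, a stem cell factor of foregut-derived epithelium, differed least. Its brightest probe set read 661 on the EV array and 678 on the PTHLH array, a log2 difference of 0.04. The next read 150 and 166 (0.15), a dimmer one 23.6 and 23.1 (-0.03), and the dimmest, below both medians, held 10.8 on both arrays. The 4 probe sets lay within -0.03 to 0.15, the closest spread among the factors with several probe sets. All these values were smaller than the SD of 0.20 between probe sets. With 1 array each the spread between cultures is unknown, so whether SOX2 differed cannot be told.

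**Figure D2:**
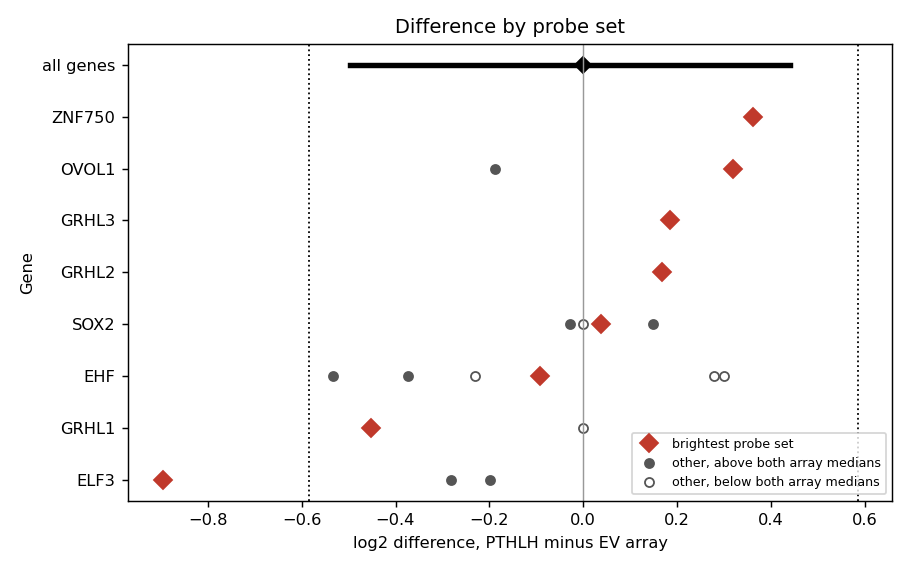
Log2 difference, PTHLH array minus EV array, of every probe set of the 8 factors, with the brightest as a red diamond, others above both array medians as filled circles and others below both as open circles. Dotted lines mark 1.5-fold, and the black bar at the top runs from percentile 5 to 95 of all genes (-0.50 to 0.44); ELF3 is the only gene with a probe set past a dotted line, at -0.90, and OVOL1 has probe sets on both sides of 0.

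Counted by probe set, the signs gave no clear direction. Of the 20 probe sets, 10 were lower on the PTHLH array, 8 were higher and 2, of SOX2 and GRHL1, were identical on both arrays, as were 6.16% of all probe sets. Among the 14 above both medians, 9 were lower and 5 higher. ELF3 and EHF supplied 6 of the 9 lower ones. By the brightest probe set, 47.0% of all genes and 48.6% of genes above both medians were below 0. Past 1.5-fold there was 1 lower probe set, that of ELF3, where 2.78% of all named probe sets were lower by that much. Probe sets of one gene share its transcripts and are not replicates.

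Relatives of the 8 factors showed differences of similar size. Of 36 other epithelial transcription factors 34 were measured, with a median log2 difference of 0.09. Past 1.5-fold, 1 was higher and none lower, where 1.97% and 3.52% of all genes were. It was PITX1, a homeobox factor of oral epithelium and hindlimb (196 to 334, 0.77 by its brightest probe set, with the suffix s, and 0.39 by its other one). The count of higher factors was 0 with the median over probe sets and without suffixes s and x, and with quantile normalization 1 factor was lower. CEBPB, a bZIP factor of keratinocyte differentiation, read 2882 and 1942 (-0.57), and UBP1, a member of the wider grainyhead family, 256 and 380 (0.57), both just inside 1.5-fold. Of the other grainyhead relatives, TFCP2L1 had 0.31 and TFCP2 0.05. Of the epithelial ETS factors, SPDEF had 0.09 and ELF5, below both medians, -0.07, and the broadly expressed ELF1, ELF2 and ELF4 had 0.15, 0.17 and 0.39. OVOL2, the paralogue of OVOL1, had -0.09 and TP73, the paralogue of TP63, 0.09. These values are by the brightest probe set. Probe sets disagreed in sign for OVOL2 (-0.09 to 0.11), TP73 (-0.28 to 0.19) and ELF2 (-0.18 to 0.17), and also for SPDEF and TFCP2. ELF3 was thus the only measured ETS factor named here with a difference past 1.5-fold.

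Genes that these factors are known to control were read next, from lists based on textbook knowledge. Some genes stand in more than 1 of these lists or also among the other epithelial factors, so the lists are not independent. Of 30 genes of the basal layer, many of them TP63 targets, 24 were measured, all above both medians. Past 1.5-fold on that array pair, 3 were higher with PTHLH and none lower, where 1.97% and 3.52% of all genes were. In all, 19 of 24 were above 0, where 48.5% of all genes were, and their median log2 difference was 0.17. The 3 were the growth factor receptors FGFR3 (306 to 519, 0.76) and FGFR2 (135 to 228, 0.75) and the basal keratin KRT15 (5485 to 8287, 0.60). For FGFR2 the 11 probe sets ranged from -0.27 to 0.75, and for FGFR3 the other probe set had 0.27. KRT15 has a single probe set. FGFR2 and FGFR3 were read by probe sets with the suffix s, and the count fell from 3 to 1 without suffixes s and x and to 0 at 2-fold.

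Of 40 genes of late squamous differentiation, the programme of ZNF750, GRHL3 and OVOL1, 37 were measured. Past 1.5-fold on the PTHLH array, 5 were higher and 2 lower, where 1.97% and 3.52% of all genes were. Their median was 0.11, and 27 were above 0, where 48.5% of all genes were. Of the 37 genes, 25 lay above both array medians and 9 below both. With a pseudocount of 16 the median was 0.04, and with probe sets above both medians alone it was 0.10. The cornified envelope precursors SPRR1B (186 to 440, 1.24) and SPRR1A (97.7 to 179, 0.87) led the list, followed by KRT13, a keratin of suprabasal oral mucosa (2473 to 3782, 0.61). The SPRR1A value came from a probe set with the suffix x, and its other probe set had -0.31. The remaining higher ones were the peptidase KLK5 (0.59) and the envelope protein SCEL (0.61, below both medians), and the lower ones, above the median on the EV array alone, were KRT78 (-0.60) and the lipoxygenase ALOX12B (-0.59). KRT13, KLK5 and SCEL were read by probe sets with the suffix s, and without suffixes s and x 1 higher gene was left. With a pseudocount of 16, or with probe sets above both medians alone, the count of lower genes was 0. The count of higher genes was then 3 and 4, respectively, and it was 3 with the median over probe sets.

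Of 34 genes of epithelial junctions, polarity and membrane traffic linked to the grainyhead-like factors, 32 were measured, 31 of them above both medians. Past 1.5-fold, 2 were lower and none higher, where 3.52% and 1.97% of all genes were. The median of the list was -0.12 (log2 difference). On the PTHLH array 23 of the 32 (71.9%) were below 0, where 47.0% of all genes and 48.6% of genes above both medians were. The lower ones were the tight junction scaffold TJP3 (147 to 60.7, -1.28), whose other probe set had -0.75, and MAL2, a protein of apical transport (347 to 171, -1.02). CLDN4, a tight junction claudin, read 229 and 161 (-0.51), but its second probe set had 0.10.

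Of 21 mesenchymal genes, which OVOL and GRHL2 restrain in epithelial cells, 20 were measured. Past 1.5-fold, 1 was lower and none higher, where 3.52% and 1.97% of all genes were. The count of lower genes was 0 with the median over probe sets, and with the largest change 2 were lower and 1 higher. The median was -0.04, and 7 lay below both medians. The lower one was the actin ACTA2 (169 to 74.3, -1.19), for which 1 of 3 probe sets lay above both medians and the highest of the 3 had 0.20. The factor TWIST1 read 180 and 127 (-0.50), and SNAI2, a repressor that basal keratinocytes also express, read 586 and 752 (0.36).

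**Figure D3:**
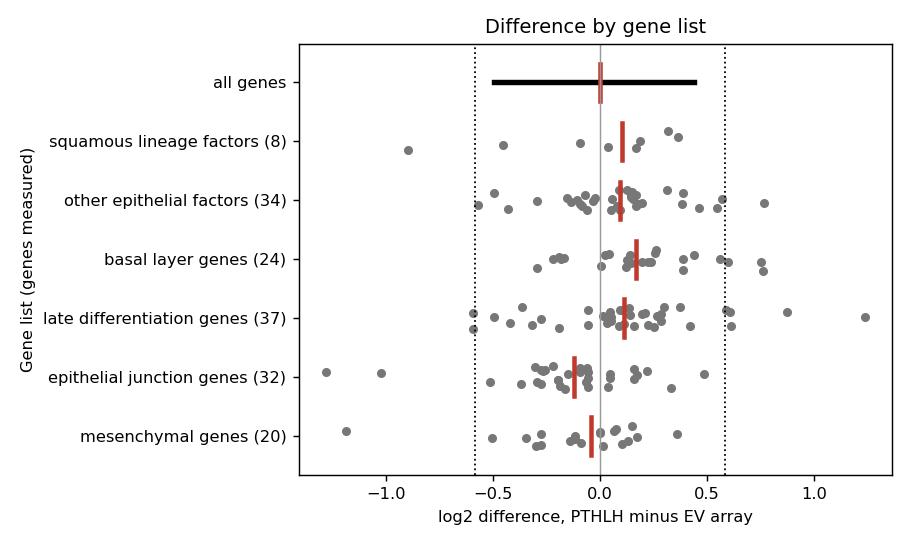
Log2 difference, PTHLH array minus EV array, by brightest probe set, of each measured gene (grey points, spread vertically for visibility) of the squamous lineage factors and 5 gene lists, with the median of each as a red line and 1.5-fold as dotted lines. The bar at the top spans percentile 5 to 95 of all genes; the junction genes have the lowest median, -0.12, and the basal layer genes the highest, 0.17.

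Choice of probe set was the step that moved ELF3, EHF, OVOL1 and GRHL1 by more than the SD between probe sets. The differences of ELF3 ranged from -0.93 to -0.28 over 8 alternatives and passed 1.5-fold in 6 of them. Most of these 6 are not separate support. Centring, the largest change, the floor and leaving out dim probe sets returned the reported -0.90 of the same probe set. Quantile normalization (-0.93) and the pseudocount (-0.87) rescaled that probe set. ELF3 came within 1.5-fold (-0.28) with the median over probe sets and when probe sets with the suffix s or x were left out. The count of lower factors was then 0, where 2.25% and 3.41% of all genes were lower in the same readings, and it was 0 at 2-fold, where 0.733% of all genes were. EHF went from -0.09 to -0.53 when the probe set with the largest change was taken, and OVOL1 from 0.32 to 0.07 and GRHL1 from -0.45 to -0.23 with the median over their probe sets. GRHL2, GRHL3 and ZNF750 have 1 probe set each, so a choice between probe sets could not change their values. Only quantile normalization and the pseudocount gave other values for these 3, with the same sign. SOX2 ranged from -0.01 to 0.15.

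**Figure D4:**
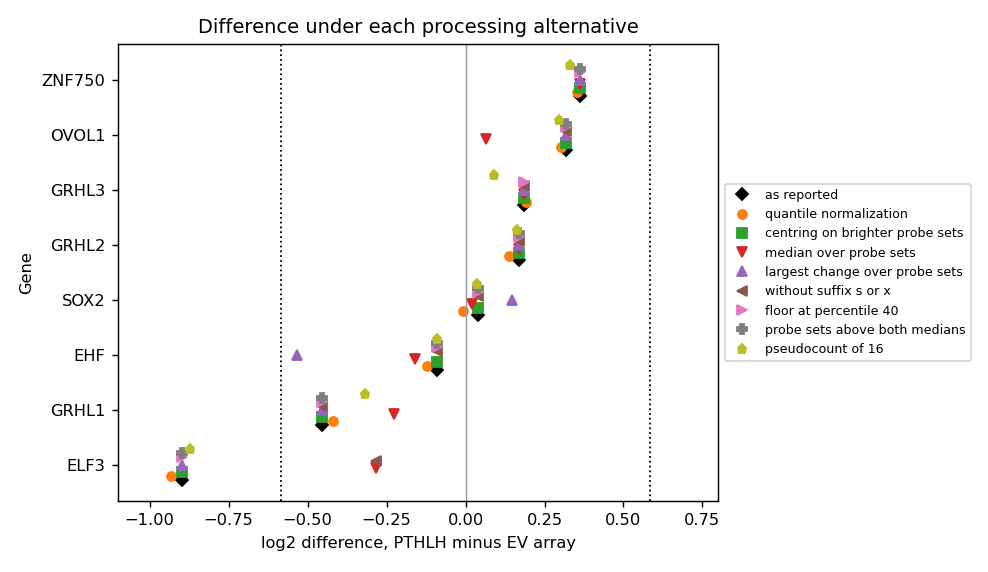
Log2 difference, PTHLH array minus EV array, of the 8 factors as reported (black diamond) and under each of 8 processing alternatives (other symbols, offset vertically), with 1.5-fold as dotted lines. ELF3 is past the left dotted line for most symbols, several of them at the reported value, and at -0.28 for 2 of them. No other factor crosses a dotted line.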

How the data were processed

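Total RNA of Ca9-22-EV and Ca9-22-PTHLH cells was measured on 1 Affymetrix U133 array each, from 6 ug of RNA per the labels. Each probe set has 1 deposited intensity per array, on a linear scale. How the authors corrected background, normalized the arrays and summarised the probes is not given in the sources used here. Groups were taken from the expression field of the labels.

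Values were turned to log2, and the EV array was subtracted from the PTHLH array without further normalization. Probe sets were named through platform annotation, with symbols checked by gene identifiers against RefSeq's GRCh38.p14 table. Of 54675 probe sets, 41097 had 1 symbol, 1801 had several and 11777 are unnamed here. The last 2 kinds were left out of gene counts. The brightest probe set, by mean log2 intensity, stood for a gene, and a change of at least 1.5-fold was counted. Precision is limited by the number of arrays. The method was tested on simulated data with planted 2-fold differences and noise of SD 0.2 (log2) between probe sets. The simulation held no spread between cultures, so it cannot show how reliable calls from 1 array per condition are.

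The factors and lists were chosen with earlier results of these data known. All probe sets of the factors are named and, of each list, the 3 genes with the largest absolute difference above the median of at least 1 array. Markers, paralogues of the factors, KLK5, SCEL, KRT78, ALOX12B and the neighbouring genes were named outside that rule, after their values were seen. Listed symbols were matched to current ones, or to an older one that points to 1 gene. Alternatives were quantile normalization, centring on brighter probe sets, a gene's median or most changed probe set, leaving out suffixes s and x, a floor at percentile 40, leaving out dim probe sets, a pseudocount of 16 and a 2-fold threshold. Python 3.11.15, pandas 2.3.3, numpy 2.4.6 and matplotlib 3.10.9 were used.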

Additional observations from a re-analysis of the deposited data

How the results depend on the processing

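No array could be left out and no paired analysis was possible because each condition has 1 array. The count of squamous lineage factors at least 1.5-fold lower was 1 and became 0 with the median over probe sets, without probe sets of suffix s or x, and at a 2-fold threshold. The count at least 1.5-fold higher was 0 under all 9 alternatives. The medians of the 8 factors and of the 5 lists moved by less than 0.20, the SD between probe sets. They were smaller than 0.20 in size to begin with, so this limit says little about their stability. Without suffixes s and x the factor median went from 0.10 to 0.04 and the mesenchymal one from -0.04 to 0.01. With a pseudocount of 16 that of late differentiation genes went from 0.11 to 0.04. Medians other than the mesenchymal one kept their sign. ELF3, the called factor, kept its sign under the 8 alternatives run for it. All its probe sets were lower on the PTHLH array, so the choice of probe set could not change that sign. Single genes of the lists were not rerun. ZNF750 could not be given without suffix s, nor GRHL3 from probe sets above both medians. The list counts are small, and that of late differentiation genes at least 1.5-fold higher fell from 5 to 1 without suffixes s and x, where 28 of its 37 genes were left. Centring changed no value, and no alternative moved the median of all genes away from 0 by 0.1 or more (log2). The share of higher among called genes, 35.9%, became 41.2% with the largest change and 19.9% at 2-fold. Dim signal limits the 6 probe sets below both medians, which are that of GRHL3, 1 each of GRHL1 and SOX2 and 3 of EHF.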

Other observations

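Genes next to the factors on the chromosome, in the gene order of GRCh38.p14, were read for comparison, with the 2 nearest measured protein-coding genes on either side of each. Of these 32 neighbours, 2 were lower on the PTHLH array by 1.5-fold or more, where 3.52% of all genes were. None was higher by that much, where 1.97% of all genes were, and the median log2 difference was -0.08. The lower ones were METRNL, a secreted meteorin-like protein near ZNF750 (169 to 60.1, -1.49), and the calcium sensor gene NCALD beside GRHL2 (44.5 to 26.4, -0.75). QTGAL, which lies between ZNF750 and METRNL, had 0.11. The neighbours of ELF3 were the aminopeptidase RNPEP (-0.16), the mitochondrial import protein TIMM17A (0.13), GPR37L1 (-0.27) and the phosphatase PTPN7 (0.14), all within 1.5-fold.

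The 2 dimmer probe sets of ELF3 had a feature of the deposited numbers. Of 34360 values above 50 on the 2 arrays, 3052 (8.88%) shared the same decimals to within 0.0005 on a grid of 0.5, where evenly spread decimals would give 0.2%. All 4 values of these 2 probe sets were on that grid, so their differences are whole steps of 0.5 in intensity.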
